A study of Mus musculus with 2 samples.

Results

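Chromatin modifiers and remodellers were compared between 2 mouse mesoangioblast clones, D16 and D351. The genes were chosen by name: a probe set was taken when its single annotated gene had a symbol starting with Arid, Smarc, Kdm, Kmt, Prmt, Phf, Hdac, Sirt, Suv, Setd, Brd, Ezh, Cbx, Ino80 or Baz, or with Chd, Kat or Ing followed by a digit. This gave 80 probe sets for 60 genes, out of 11868 probe sets and 5928 genes on the array once the manufacturer's controls were set aside. The rule reads names and no measured value, but it was set with earlier results of these data known. A name does not prove a function: Setd3, Phf24 and Arid5b were taken as readily as subunits of known chromatin complexes. The Sirt, Ezh and Kat names had 0 probe sets among those annotated to a single gene.

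Both clones came from C57BL6 embryos at embryonic day 9.5, without a transgene or drug treatment named in the labels. Pieces of dorsal aorta were grown for 5 days as explants, and single cells were then cloned by limiting dilution on mitomycin C-treated primary mouse embryonic fibroblasts; clones were visible after 1 week and were expanded on gelatin. Mesoangioblasts are vessel-associated mesodermal progenitors, and the labels place them in smooth muscle differentiation. Total RNA of each clone was hybridized to 1 array, the C array of the U74 set, so each group is a single clone on a single array. No difference below has a replicate check or a test, and the small number of arrays limits precision.

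DNA in the nucleus is wound around histones, and chromatin modifiers and remodellers control how tightly. Remodellers such as the SWI/SNF, ISWI, CHD and INO80 families use ATP to slide, eject or exchange nucleosomes. Writers (methyltransferases, acetyltransferases) place chemical marks on histone tails, erasers (demethylases, deacetylases) remove them, and readers with bromodomains, chromodomains or PHD fingers bind them. In mesodermal and muscle lineages, SWI/SNF complexes and the class IIa deacetylases are known partners and brakes of the transcription factors that drive muscle genes.

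Intensities are used as deposited, on a linear scale. A value at or below 6.4, the median of all values of both arrays, is called dim, and a probe set above it on at least 1 array is called measured. Dim values were raised to 6.4 before log2 was taken, so a probe set dim on 1 array gives a lower bound, written "at least". Every log2 ratio is D16 minus D351, and a gene is represented by its brightest probe set. Probe sets for bacterial and yeast transcripts, which should find no target, reached 11.2, so intensities up to that value cannot be told from background. The 9 probe sets for hybridization controls were brighter in D16, by a median of 1.59-fold (log2 0.67), and all directions below are relative to the common mean of the arrays. Of 11 mesodermal progenitor markers only the VEGF receptor gene Kdr was analysed here, with 1.6 intensity units in D16 and 9.5 in D351, so the labelled cell type could not be checked. Fibroblast markers (5 of 14 analysed) summed to 781 in D16 and 2548 in D351, and smooth muscle markers (4 of 9) to 109.6 in D16 and 1087 in D351. Endothelial markers (3 of 8) summed to 21.6 in D16 and 92.0 in D351 but lay apart: Flt1 had 1.3 in D16 and 87.6 in D351, and Egfl7 19.5 in D16 and 3.8 in D351. Haematopoietic markers (2 of 7) summed to 140.8 in D16 and 197.9 in D351. Of these markers Sox17 alone was dim in both clones, and 0 were at an intensity of 0. The part of these markers in the differences below was not tested.

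Most chromatin genes that could be read in both clones differed by less than 1.5-fold. Of the 60 genes, 48 were measured, and the remaining 12 did not rise above the floor on either array. Of the 31 genes with both values above the negative controls, a filter chosen after seeing the data, 24 differed by less than 1.5-fold (77.4%), against 64.6% of 2427 such genes of the array. Another 12 of the 48 gave lower bounds, for which no upper limit of the difference is known. At least 2-fold higher in D16 were 3 genes, the heterochromatin methyltransferase gene Suv39h2, the deacetylase gene Hdac11 and the SWI/SNF subunit gene Phf10, which is 6.25% of the 48, where 10.2% of all measured genes were called in that direction. At least 2-fold higher in D351 were 5 genes, Arid5b, Smarca1, Prmt2, Phf8 and, by 1 of its 2 probe sets, Setd5, which is 10.4%, where 10.3% of all measured genes were called. The share higher in D351 was close to that of the whole array by this rule, but it rests on 5 genes, Setd5 among them. Over the mean of probe sets 3 of 48 genes were higher in D351, where 9.84% of all measured genes were called. Among the 31 genes above the negative controls the share was 12.9%, against 7.17% of the 2427. The median log2 ratio of the 48 genes was -0.019, with 22 above 0 and 26 below, and that of all measured genes was 0.022. For the 36 genes above the floor on both arrays the log2 ratios had an SD of 0.66, and for 3061 such genes of the whole array 0.85. In RNA of a whole culture, fewer cells that express a gene and less RNA per cell cannot be told apart.

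By probe set, 56 of the 80 were measured. Of these, 5 were at least 2-fold higher in D16 (8.93%), where 9.75% of 6828 measured probe sets were called. Another 6 were at least 2-fold higher in D351 (10.7%), where 9.74% were called.

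**Figure D1:**
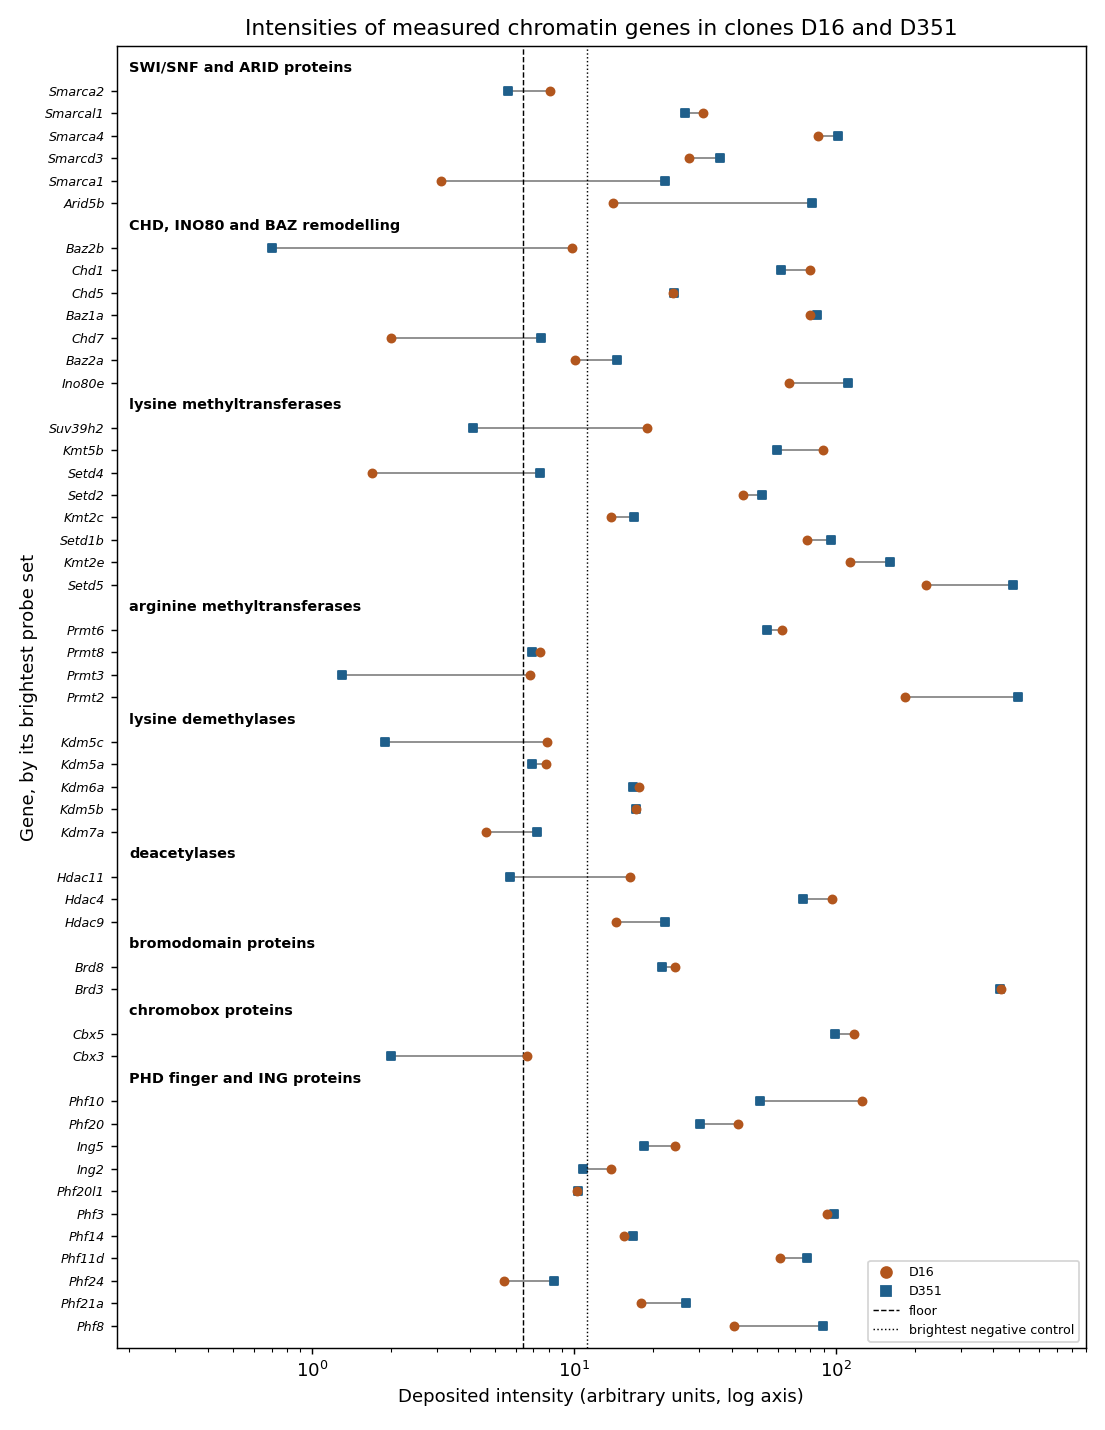
Deposited intensities (log axis) of the 48 measured chromatin genes by their brightest probe set, grouped by role, with D16 as circles and D351 as squares; the dashed line is the floor of 6.4 and the dotted line the brightest negative control, 11.2. For most genes the symbols lie close together; Arid5b, Prmt2, Setd5 and Phf8 lie to the right in D351, and Phf10 in D16.

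The group with Arid and Smarc names is wider than SWI/SNF, and it leaves out the SWI/SNF subunit gene Phf10, which was higher in D16. Among its 6 measured genes, Arid5b and Smarca1 passed 2-fold, both towards D351 (33.3%, where 10.3% of all measured genes were called). Neither gene is a SWI/SNF subunit, so this share does not describe SWI/SNF. No gene of this group passed 2-fold towards D16, where 10.2% of all measured genes were called. Arid5b, a DNA-binding protein with an AT-rich interaction domain that works with a histone demethylase, stood at 14.1 intensity units in D16 and 81.5 in D351 (probe set 165978_at). It was 5.78-fold higher in D351 (log2 ratio -2.53), the widest ratio of the 36 genes above the floor on both arrays. Because the D16 value is close to background, the fold depends on the floor, and with a floor of 20.7 it was at least 3.94-fold higher in D351. Smarca1, the ISWI ATPase also called SNF2L, was dim in D16 at 3.1 and stood at 22.2 in D351, at least 3.47-fold higher in D351. Its other probe sets read 0.2 in D16 against 10.2 in D351, and 3.7 in D16 against 8.3 in D351. All 3 lay towards D351, but only the brightest passed 2-fold, and each has a D16 value below the floor and at most a faint D351 value. With the floor at 20.7 the bound for Smarca1 was 1.07-fold. Smarca4 (BRG1), an ATPase of SWI/SNF, had 85.5 in D16 and 102.1 in D351, a log2 ratio of -0.26. Its second probe set read 84.3 in D16 and 94.4 in D351, so both readings of this gene gave nearly the same ratio. Smarca2 (BRM), the alternative ATPase, had 8.1 in D16 and was dim in D351 at 5.6, both within the range of the negative controls. Smarcd3, the BAF60c subunit known from heart and skeletal muscle, had 27.5 in D16 and 36.2 in D351 (probe set 168558_f_at), a log2 ratio of -0.40. The second probe set of Smarcd3 was dim in both clones, at 5.3 in D16 and 1.2 in D351. Smarcal1, a helicase that rewinds DNA at stalled replication forks, had, by its brightest probe set, 31.2 in D16 and 26.5 in D351. Another probe set of Smarcal1 leaned the other way, at 14.0 in D16 and 22.6 in D351. Arid4b, Smarcad1 and the SWI/SNF subunit gene Smarce1 were dim in both clones.

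Of 7 measured CHD, INO80 and BAZ remodelling genes, 5 were above the floor in both clones, and their log2 ratios by the brightest probe set ran from -0.75 to 0.37. The other two, Baz2b and Chd7, gave lower bounds. Ino80e, a subunit of the INO80 complex, came nearest to 2-fold among the bright ones, at 66.3 in D16 and 111.8 in D351, 1.69 times as much in D351. Baz1a, the large subunit of the ACF remodeller, had 80.0 in D16 and 85.2 in D351. Chd1, a remodeller of transcribed genes, had, by its brightest probe set, 79.6 in D16 and 61.6 in D351. Its other probe set read 39.2 in D16 and 18.9 in D351, a log2 ratio of 1.05. Both Chd1 readings lay towards D16, the second of them past 2-fold. Chd5 had 23.8 in D16 and 24.2 in D351. The remaining genes were faint: Baz2a, of the complex that silences ribosomal genes, had 10.1 in D16 and 14.6 in D351. Baz2b had 9.8 in D16 and was dim in D351, at least 1.53-fold higher in D16, and Chd7 was dim in D16 and had 7.5 in D351, all within the range of the negative controls. Baz1b was dim in both clones.

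Of 8 measured lysine methyltransferase genes, 1 was called in each direction (12.5%), where 10.2% of all measured genes were called towards D16 and 10.3% towards D351. Suv39h2, which methylates histones in heterochromatin, had 19.0 in D16 and was dim in D351 at 4.1 (probe set 132730_at), at least 2.97-fold higher in D16. A floor of 20.7 left Suv39h2 dim in both clones. The other 7 measured genes had lower ratios, with 6 of 8 below 0 and a median of -0.27. Setd5, a SET domain protein, had, by its brightest probe set (135433_at), 221.8 in D16 and 476.3 in D351, 2.15 times as much in D351. Its other probe set (167069_i_at) read 46.2 in D16 and 22.0 in D351, 2.10 times as much in D16. That dimmer probe set carries the mark i, and over unmarked probe sets Setd5 had a log2 ratio of -1.10. The readings of Setd5 thus passed 2-fold in opposite directions, although all 4 values were above the negative controls, and their mean log2 ratio was -0.016. No direction can be given for Setd5. Kmt2e (MLL5) had 113.7 in D16 and 161.1 in D351, and Kmt5b, which methylates histone H4, leaned the other way with 89.6 in D16 and 59.9 in D351. Their log2 ratios were -0.50 and 0.58. Setd1b, of the COMPASS complexes at active promoters, had 77.8 in D16 and 96.3 in D351. Setd2, which marks transcribed gene bodies, had 44.3 in D16 and 52.3 in D351. Kmt2c (MLL3), an enhancer methyltransferase, had 13.8 in D16 and 17.0 in D351. These differences were all under 1.5-fold. Setd4 was dim in D16 and had 7.4 in D351, and Setd3 was dim in both.

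Of 4 measured arginine methyltransferase genes, Prmt2 passed 2-fold, towards D351 (25%, where 10.3% of all measured genes were called). No gene of this group passed 2-fold towards D16, where 10.2% of all measured genes were called. Prmt2, a coactivator of nuclear receptors, had 184.1 in D16 and 496.1 in D351 (probe set 165433_at), 2.69-fold higher in D351 with a log2 ratio of -1.43. Both values lay far above the floor, so the ratio was 2.69-fold with a floor of 20.7 too. Prmt6 had 62.3 in D16 and 54.8 in D351, a log2 ratio of 0.19. Prmt3, which acts on a ribosomal protein, had 6.8 in D16 and was dim in D351. Prmt8, known from brain, was faint in both clones, at 7.4 in D16 and 6.9 in D351, and its other 2 probe sets were dim in both. Prmt5 was dim in both clones.

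Among the erasers, Phf8 and Hdac11 passed 2-fold, in opposite directions. Of 5 measured lysine demethylases with the Kdm name, Kdm5a, Kdm5b and Kdm6a were above the floor in both clones and differed by less than 1.5-fold, and Kdm5c and Kdm7a gave lower bounds. Kdm6a (UTX), the X-linked demethylase of Polycomb marks, had 17.8 in D16 and 16.8 in D351. Kdm5b, which removes marks of active promoters, had 17.2 in D16 and 17.3 in D351. Its relatives Kdm5a (7.8 in D16 and 6.9 in D351) and Kdm5c (7.9 in D16 and dim in D351) fell inside the negative controls' range, as did Kdm7a (dim in D16 and 7.2 in D351). With the floor at 1.8, the log2 ratio was 2.06 for Kdm5c and -0.65 for Kdm7a. Kdm3a and Kdm8 were dim in both. Phf8, an X-linked demethylase that carries a PHD finger name, had 40.9 in D16 and 89.1 in D351, 2.18 times as much in D351. That value came from a probe set whose identifier carries the mark f, and the second probe set of Phf8 was dim in both clones. Hdac11, the class IV deacetylase, had 16.4 in D16 and was dim in D351 at 5.7, at least 2.56-fold higher in D16, and a floor of 20.7 left it dim in both clones. The class IIa deacetylases, which bind and restrain Mef2 factors, did not pass 2-fold by their brightest probe sets, and the direction of Hdac4 depended on the probe set. Hdac4 had 96.8 in D16 and 75.1 in D351, a log2 ratio of 0.37. A faint second probe set of Hdac4 with the mark r was dim in D16 at 3.0 and read 14.9 in D351, a log2 ratio of at most -1.22. Over the mean of its measured probe sets the log2 ratio of Hdac4 was -0.43. Hdac9 had 14.5 in D16 and 22.3 in D351, 1.54 times as much in D351. Its probe set carries the mark i, and with a floor of 20.7 the bound was 1.08-fold. Scaled to the hybridization controls, the log2 ratios were -0.31 for Hdac4 and -1.29 for Hdac9.

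Among readers of histone marks above the floor in both clones, Phf10 and Phf8 passed 2-fold by their brightest probe sets. Brd3, a BET bromodomain protein that binds acetylated histones, had 427.8 in D16 and 425.0 in D351, a log2 ratio of 0.0095. That value came from a probe set with the mark f, and the second probe set of Brd3 was dim in both clones (3.9 in D16 and 2.4 in D351). Brd8, of the Tip60 acetyltransferase complex, had 24.4 in D16 and 21.7 in D351, and the testis gene Brdt was dim in both. Cbx5, heterochromatin protein HP1 alpha, had 117.8 in D16 and 99.2 in D351. The second Cbx5 probe set had 12.4 in D16 and a dim 5.0 in D351, a bound of 0.95 on the log2 scale, in the same direction. Cbx3 had 6.6 in D16 and was dim in D351, which gives only a lower bound, and Cbx1 was dim in both. Ing2, of Sin3 deacetylase complexes, had 13.8 in D16 and 10.8 in D351, and Ing5, of acetyltransferase complexes, 24.3 in D16 and 18.5 in D351. Ing3 was dim in both.

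Phf10, a subunit of the PBAF form of SWI/SNF also called BAF45a, had 125.7 in D16 and 51.6 in D351 (probe set 139227_at). It was 2.44-fold higher in D16 (log2 ratio 1.28), and of the 3 genes called higher in D16 it alone was above the negative controls on both arrays. Scaled to the hybridization controls its log2 ratio was 0.61, under 2-fold. The other PHD finger genes above the floor in both clones, Phf8 apart, were within 1.5-fold. Phf20, of a histone acetyltransferase complex, had 42.5 in D16 and 30.4 in D351, and Phf21a, of the Lsd1 complex, 18.1 in D16 and 26.8 in D351. Phf3 had 92.5 in D16 and 98.6 in D351, Phf11d 61.5 in D16 and 77.7 in D351, and Phf14 15.6 in D16 and 16.8 in D351. Phf20l1 (10.3 in D16 and 10.4 in D351) and Phf24 (dim in D16 and 8.4 in D351) fell inside the negative controls' range, and Phf7 was dim in both. The ratio of Phf24 is a lower bound of 1.31-fold towards D351, and its log2 ratio was -0.64 with the floor at 1.8.

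Among genes above the floor in both clones, Phf10 (1.28) stood just inside the 2-fold line (log2 ratios of 1 and -1) towards D16, and Setd5 (-1.10) and Phf8 (-1.12) towards D351. Just outside stood Kmt5b (0.58) and Phf20 (0.48) towards D16, and Ino80e (-0.75) and Hdac9 (-0.62) towards D351. Hdac11 (at least 1.36) and Baz2b (at least 0.61) are lower bounds with no fixed place beside the line. With the pseudocount in place of the floor Baz2b had a log2 ratio of 1.19, and with the floor at 1.8 at least 2.44.

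Where a gene had more than 1 measured probe set, the readings often differed. This could be seen for 7 of the 60 genes. The brightest pair lay on the same side of 0 for 4 (Cbx5, Chd1, Smarca1 and Smarca4) and on opposite sides for 3 (Hdac4, Setd5 and Smarcal1). For the 4 genes with both probe sets above the floor on both arrays, paired log2 ratios scattered with an SD of 0.87 for each probe set, and for 409 such genes of the array with 0.67. Of the 8 genes past 2-fold, 6 (all but Setd5 and Smarca1) rest on a single measured probe set and have no such check. Brd3, Smarcd3, Kmt5b, Phf8 and Phf20 each had another probe set that was dim in both clones. Hdac4 and Smarcal1 also had such a dim probe set beside their measured ones. A mark such as f, r, i, g or s in an identifier tells of looser probe selection or of probes that several transcripts share, and 26 of the 80 probe sets carried one. Of the genes past 2-fold, Smarca1 and Phf8 were read by a marked probe set.

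**Figure D2:**
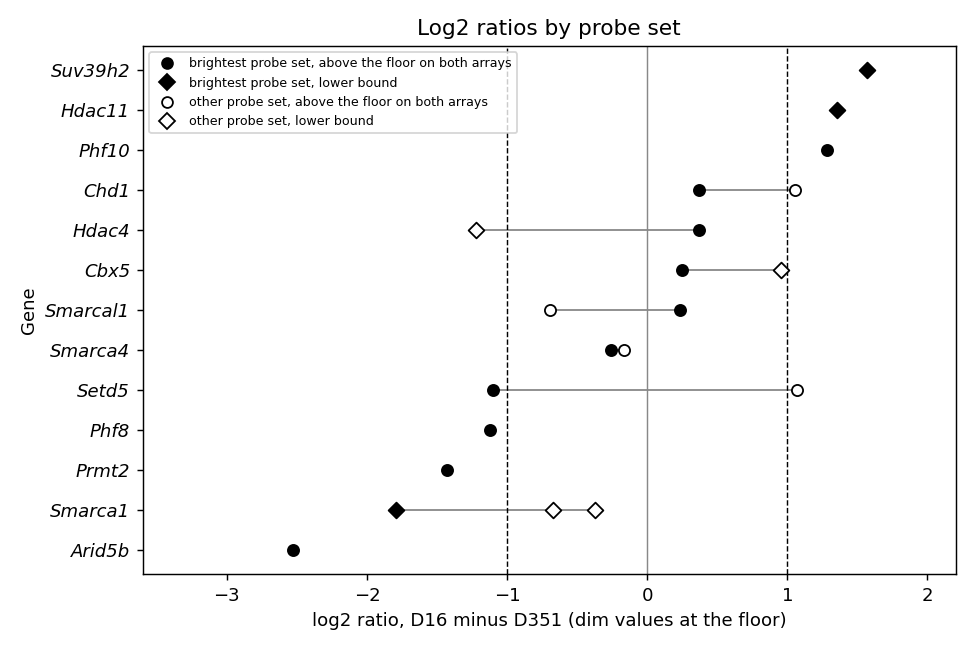
Log2 ratios, D16 minus D351, of every measured probe set of the genes past 2-fold and of the genes with more than 1 measured probe set; filled symbols are the brightest probe set, diamonds are lower bounds, and dashed lines mark 2-fold. Setd5 has readings at -1.10 and 1.07, on opposite sides, and all 3 readings of Smarca1 lie towards D351.

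The directions held to different degrees when the processing was varied. Arid5b and Prmt2 stayed at least 2-fold higher in D351 in each of 9 other settings that kept the 2-fold rule. Their log2 ratios ran from -1.98 to -3.20 and from -1.40 to -2.10. Phf8 stayed so in each of the 8 settings in which it was measured, and over unmarked probe sets it was dim in both clones. Suv39h2 stayed at least 2-fold higher in D16 in the 8 settings in which it was measured. Phf10 fell under 2-fold in 1 of 9 settings and Hdac11 in 2 of 8. Setd5 lost its call when its probe sets were averaged. Smarca1 lost it with the floor at 20.7, over unmarked probe sets (log2 ratio -0.38) and over the mean of its probe sets (log2 ratio -0.95). With the floor at 20.7, 28 of the 60 genes were measured, 1 of them was called higher in D16, where 8.33% of all measured genes were, and 4 in D351, where 7.91% were. Scaled to the hybridization controls, 1 of 47 measured genes was called higher in D16 (3.67% of all) and 12 in D351 (27.5% of all). That scaling moved the median of all measured genes to -0.58 and that of the chromatin genes to -0.66.

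**Figure D3:**
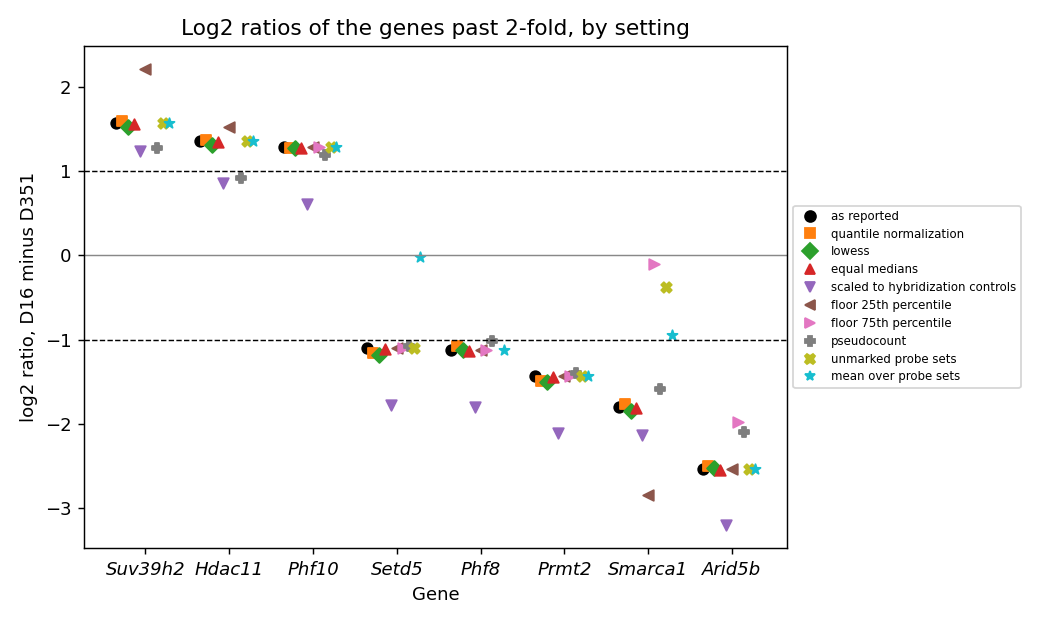
Log2 ratios, D16 minus D351, of the 8 chromatin genes past 2-fold under each processing setting; dashed lines mark 2-fold. Arid5b, Prmt2 and Phf8 stay below -1 and Suv39h2 above 1 in every setting shown for them, while Setd5 reaches -0.016 when its probe sets are averaged.

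Chromatin genes outside the name rule were compared through a list of 214 further factors, of which 54 were analysed here and 38 were measured. Higher in D16 by at least 2-fold were 3 of them (7.89%, against 10.2% of all measured genes) and higher in D351 was 1 (2.63%, against 10.3%), with a median log2 ratio of -0.036. Both shares are below those of the whole array, and the 4 genes are given as values. Nsd2, a histone methyltransferase of active gene bodies, had 135.0 in D16 and 38.7 in D351, 3.49 times as much in D16. Uhrf1, which brings the maintenance DNA methyltransferase to replicated DNA, had 33.4 in D16 and 12.5 in D351, 2.67 times as much in D16. Both genes were above the negative controls on both arrays, but Uhrf1 was read by a probe set with a mark and was at least 1.61-fold higher in D16 with the floor at 20.7. Dnmt3l, a cofactor of de novo DNA methylation, had 21.8 in D16 and was dim in D351, and Smyd5 was dim in D16 and had 13.1 in D351. These bounds were at least 3.41-fold towards D16 and 2.05-fold towards D351, and neither gene passed 2-fold with the floor at 20.7. Dnmt3l, like Uhrf1, was read by a probe set with a mark.

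Of 37 measured genes on a list of 132 for cell cycle and replication, 14 passed 2-fold towards D16 (37.8%, against 10.2% of all measured genes) and 2 towards D351 (5.41%, against 10.3%), and their median log2 ratio was 0.48. Their summed intensity, over the 44 genes on the array, was 2548 in D16 and 1324 in D351. Of the 14, Aurkb, Cdca2, Cenpn, Clspn, Pold1, Stil and Tk1 were read by a marked probe set. Further measured probe sets of Mcm10, Orc3 and Tk1 lay towards D16 but under 2-fold. Zwint, called towards D351, had another probe set with a log2 ratio of 1.19. Scaled to the hybridization controls, Anln, Aurkb, Cdca2, Mcm10, Ndc80, Nuf2, Orc3 and Tk1 were under 2-fold. The part of proliferation in the levels of Suv39h2, Hdac11, Phf10, Nsd2 and Uhrf1 was not tested.

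**Figure D4:**
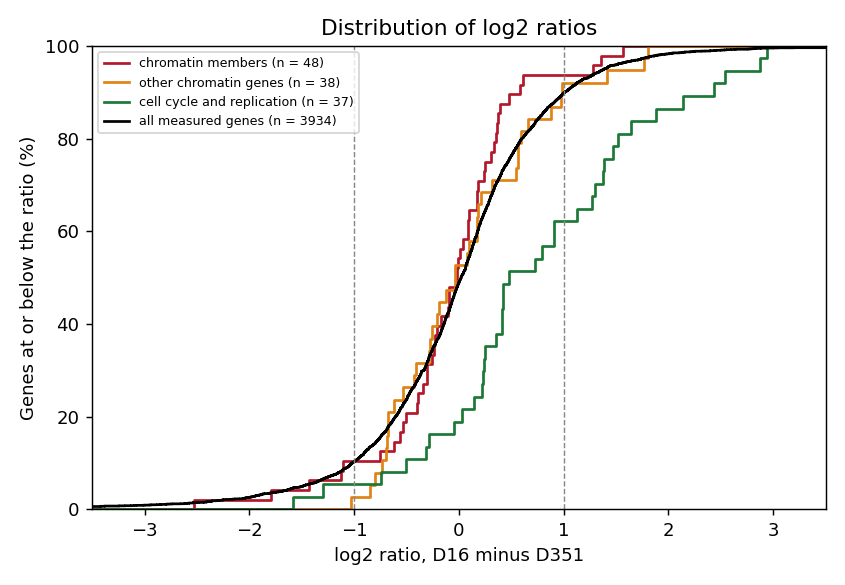
Cumulative share of genes (percent) by log2 ratio, D16 minus D351, for the 48 measured chromatin genes, 38 further chromatin genes, 37 cell cycle genes and all 3934 measured genes; dashed lines mark 2-fold. The chromatin curves cross 50% near 0 with the curve of all genes, and the cell cycle curve lies to the right.

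Promoter sequences are shown for the members with the widest ratio between measured values and the widest lower bound towards D16 (Phf10, Suv39h2) and with the widest ratios between measured values towards D351 (Arid5b, Prmt2), to set the start regions of genes that differ in opposite directions side by side. They are the 250 bases before the annotated start, 5′ to 3′, from RefSeq, build GRCm38.p6. Capitals mark the letters CCAAT (the CCAAT box), GGGCGG (the GC box) and TATAAA (the TATA box) on either strand.
Phf10, chr17:14961261-14961510, minus strand: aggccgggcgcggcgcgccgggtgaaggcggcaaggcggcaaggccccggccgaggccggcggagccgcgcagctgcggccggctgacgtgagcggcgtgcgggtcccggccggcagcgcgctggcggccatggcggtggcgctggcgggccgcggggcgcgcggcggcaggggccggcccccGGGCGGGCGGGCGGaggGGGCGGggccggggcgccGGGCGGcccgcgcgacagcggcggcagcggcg
Suv39h2, chr2:3474987-3475236, minus strand: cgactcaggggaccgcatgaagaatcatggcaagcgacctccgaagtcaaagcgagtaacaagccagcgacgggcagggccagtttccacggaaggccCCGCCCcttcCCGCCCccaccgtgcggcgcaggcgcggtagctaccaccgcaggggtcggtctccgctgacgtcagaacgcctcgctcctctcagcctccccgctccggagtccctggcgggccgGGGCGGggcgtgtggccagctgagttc
Arid5b, chr10:68278727-68278976, minus strand: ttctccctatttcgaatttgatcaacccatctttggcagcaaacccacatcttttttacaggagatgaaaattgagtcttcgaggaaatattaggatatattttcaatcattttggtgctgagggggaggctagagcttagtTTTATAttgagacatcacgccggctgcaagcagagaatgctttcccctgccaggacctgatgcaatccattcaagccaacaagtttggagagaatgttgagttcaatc
Prmt2, chr10:76237866-76238115, minus strand: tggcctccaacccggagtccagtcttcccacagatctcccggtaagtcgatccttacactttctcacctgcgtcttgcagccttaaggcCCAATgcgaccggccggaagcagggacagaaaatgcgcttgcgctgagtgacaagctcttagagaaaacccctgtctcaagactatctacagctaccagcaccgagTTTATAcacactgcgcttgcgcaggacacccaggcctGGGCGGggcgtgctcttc

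RefSeq promoters were found for 50 of the 60 genes, 65 windows in all. The Phf10 window held 51 CpG dinucleotides and that of Suv39h2 27, against 4 in that of Arid5b and 14 in that of Prmt2. Over all 32851 windows of this length in the table the median was 6, and over the 65 windows of chromatin genes it was 20. The letters GGGCGG, the GC box, occurred 5 times in the Phf10 window, counting overlaps, 3 times in that of Suv39h2, 1 time in that of Prmt2 and 0 times in that of Arid5b. They were present in 69.2% of the windows of chromatin genes and in 32.7% of all windows. TATAAA was found in the windows of Arid5b and Prmt2 and in neither of the other pair, and in 7.69% of the windows of chromatin genes against 12.4% of all. CCAAT was found in 40.0% against 33.8%, and TTTGGCGC, letters bound by E2F factors, in 3.08% (2 windows) against 0.417%. Taking 1 window a gene, the 3 genes higher in D16 held 17 to 51 CpG and Arid5b, Smarca1, Prmt2 and Phf8, higher in D351, held 4 to 19, so the ranges overlap. Setd5, for which no direction can be given, held 0. These are matches of letters in a window and no measure of binding.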

How the data were processed

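The table the authors deposited holds, per array, a single linear intensity for every one of 11934 probe sets; how the authors summarised and scaled them is not given in the sources used here. Trimmed by 2% at each end, both arrays had a mean of 20.01, and the intensities were used unchanged. Of 66 controls set aside, 9 for hybridization and 19 negative ones served as checks. Gene names came from the platform annotation (7717 probe sets with 1 gene, 150 with several, 4001 unnamed here), and all 60 members were found in the RefSeq table of GRCm38.p6 with 0 symbols changed. The floor was 6.4, the pooled median. No test was made, and differences were described by a 2-fold rule.

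Named were all members past 2-fold, the 3 brightest of each role, members with several measured probe sets, those next to the 2-fold line, and further chromatin genes past 2-fold; other members were added so that each is accounted for. The members and lists were chosen with earlier results of these data known. Alternatives were quantile normalization, lowess centring (span 0.3), equal medians, scaling to the hybridization controls, floors at the 25th (1.8) and 75th percentile (20.7), a pseudocount of 6.4, unmarked probe sets, the mean over probe sets and a 3-fold rule. The procedure was tested on simulated data made from the D16 array, with large changes placed only in bright probe sets. That test does not bear on calls near 2-fold or near the floor. Software was Python 3.11.15 with matplotlib 3.10.9, statsmodels 0.14.6, scipy 1.17.1, pandas 2.3.3 and numpy 2.4.6.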

Additional observations from a re-analysis of the deposited data

How the results depend on the processing

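No paired analysis was possible because each clone contributed 1 array. Quantile normalization, lowess centring and equal medians gave the reported counts, 3 genes and 5 probe sets higher in D16 against 5 genes and 6 probe sets in D351. Scaled to the hybridization controls, 1 probe set and 1 gene were higher in D16 (3.37% and 3.67% over all measured). In D351 15 probe sets and 12 genes were higher (26.2% and 27.5% over all measured). The median log2 ratio was then -0.66, against -0.58 over all measured genes. With the floor at 1.8, 14 probe sets were higher in D16 and 14 in D351 (17.0% and 15.1% over all measured probe sets), and 7 and 8 genes (15.6% and 14.6% over all measured genes). With the floor at 20.7, 2 probe sets and 1 gene were higher in D16 (7.5% and 8.33% over all measured). With the pseudocount, 3 probe sets were higher in D16 (7.89% over all measured). Over unmarked probe sets, 3 probe sets and 3 genes were higher in D351 (9.9% and 10.5% over all measured). Over the mean of probe sets 3 genes were higher in D351 (9.84% over all measured). At 3-fold, 0 probe sets and 0 genes were higher in D16 (3.18% and 3.56% over all measured). In D351 2 probe sets and 2 genes passed 3-fold (4.09% and 4.58% over all measured). Over the 31 genes above the negative controls on both arrays, a choice made after seeing the data, 1 was higher in D16 and 4 in D351 (8.82% and 7.17% over all 2427 such genes). Apart from scaling to the hybridization controls, the median of the chromatin genes stayed between -0.097 and -0.014. The fewer measured genes at the higher floor, and the more measured genes and wider bounds at the lower floor, follow from their construction. So does the shift towards D351 after scaling, which takes log2 0.67 from each ratio of values above the floor. For the other changes the cause was not tested. No replicate array bounds any ratio, and values up to 11.2 lie within background.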

Other observations

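Chromatin genes on the X chromosome were 4, all measured. Phf8 and Smarca1 passed 2-fold towards D351, Kdm6a did not, and Kdm5c gave a lower bound of 1.23-fold towards D16. With bounds at their value, the median log2 ratio of the 4 was -0.52. On chromosome 10, Arid5b and Prmt2 passed 2-fold towards D351, while Baz2a, the remaining member there, had a log2 ratio of -0.53, the median of the 3 being -1.43. On chromosome 6, which held the most members (10, of them 7 measured), Hdac11 was higher in D16 and Setd5 in D351 by its brightest probe set, with a median of 0.044. Over all measured genes, 10.2% were called towards D16 and 10.3% towards D351, and the median log2 ratio was 0.022. The positions of the members were looked at after the values were seen and are given as values only.

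Taken over genes above the negative controls on both arrays, 31 chromatin genes had a median log2 ratio of -0.092, with 12 above 0 and 19 below, and 2427 genes of the array had a median of 0.015.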
